A study of Mus musculus with 8 samples.

Results

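Monocytes and macrophages are a rare class among the lymphocyte-rich cells of the mouse spleen, and 303 of 42183 cells in the 4 droplet RNA libraries of total splenocytes belonged to it. They were chosen by the levels of their own transcripts, counted as UMIs, which are sequenced molecules told apart by a random tag. A cell had to show more than 100 genes, at most 10% of UMIs from mitochondrial genes, at least 2 UMIs of Csf1r, C1qa and C1qb together and at least 3 UMIs of Lyz2, C1qa and C1qb together. B cells were kept out by allowing at most 1 UMI of Cd79a and Ms4a1 together, and T cells by 0 UMIs of Cd3d, Cd3e and Cd3g. Neutrophils were kept out by fewer than 20 UMIs of S100a8 and S100a9, plasmacytoid dendritic cells by 0 UMIs of Siglech, and conventional dendritic cells by fewer than 2 detected genes of Flt3, Zbtb46, Clec9a, Xcr1, Itgax, Clec10a and Cd209a. Within the class, 132 cells carried at least 1 UMI of C1qa or C1qb and are called C1q-positive, and the other 171 are called C1q-negative. Since the levels of these genes chose the cells, their levels are given as a description. They stayed in the fits and in the counts of genes, but the tests of genotype are read only for genes that the rule did not use.

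The cKO mice were Eif3e fl/fl Cγ1Cre Rosa26-YFP LSL, with floxed Eif3e, a subunit gene of the translation initiation factor eIF3. The controls carried Cγ1Cre and Rosa26-YFP LSL without a floxed Eif3e. All mice were 2 months old, and each library pooled the cells of 2 to 3 mice. There were 2 cKO total and 2 control total libraries, 1 of each in batch 1 and in batch 2 of the labels. The Cre sits in the Ig γ1 locus and is switched on in activated B cells, so the allele is not aimed at monocytes or macrophages, and whether cells of the class had lost Eif3e was not tested. The tissue label is spleen, although the extraction protocol also speaks of lymph nodes, and red cells were lysed before live cells were sorted.

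Monocytes circulate in blood and are stored in the spleen in a pair of forms, the classical form, marked in mice by Ly6c2 and Ccr2 and drawn into inflamed tissue, and the non-classical form, which depends on Nr4a1 and patrols the vessel wall. Red pulp macrophages live in the spleen, need the transcription factor SpiC, take up worn red cells, break heme down with heme oxygenase 1 (Hmox1) and send the iron back out through ferroportin (Slc40a1). C1q, the recognition part of the classical complement pathway, is made mainly by tissue macrophages and binds immune complexes and dying cells.

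The 4 libraries held between 71894780 and 88513929 UMIs over 32285 genes, but the summed cells of the class held only 273487 to 899324, the C1q-positive cells 109141 to 190052 and the C1q-negative cells 100259 to 748059. Between 62 and 98 barcodes of kept cells were shared by a pair of libraries, and 0 barcodes marked a cell of the class in both libraries of a pair. Barcodes shared between a cell of the class and a cell outside it were not counted. Eif3e itself was at 198 and 228 CPM (UMIs of the gene per 1000000 UMIs of the tested genes of the summed cells, after library scaling) in cKO total 1 and 2 and at 188 and 222 in control total 1 and 2. The groups overlapped, with a log2 difference of 0.05 ± 0.314 (SE, edgeR adjusted p = 0.999). The kit reads the 3′ end of transcripts, which can lie outside the deleted part, so this value checks neither the allele nor the labels. The tested genes held 94.3 to 94.8% of the UMIs in the class, 83.9 to 85.5% in C1q-positive and 90.2 to 90.9% in C1q-negative cells, so CPM values of C1q-positive cells are raised slightly beside those of C1q-negative cells. CPM values of B cells and of cells set aside are per 1000000 of all their UMIs, without library scaling.

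Monocytes and macrophages made up 0.563% of the kept cells in cKO total 1 (59 cells, 95% exact interval 0.429 to 0.726%) and 0.529% in cKO total 2 (56 cells, 0.400 to 0.687%). They made up 0.627% in control total 1 (60 cells, 0.479 to 0.807%) and 1.11% in control total 2 (128 cells, 0.925 to 1.32%). Both cKO libraries lay below both controls, at 0.546 ± 0.024% against 0.867 ± 0.340% (SD, n = 2 each, two-sided exact permutation p = 0.3333, the smallest 2 against 2 libraries allow). Control total 2 set most of the gap, and without it the difference shrank from -0.321 to -0.0810 percentage points. Intervals cover counting error only. After each cell was thinned to 2000 UMIs and shallower cells were left out, the shares were 0.450 and 0.326% in cKO total and 0.311 and 0.484% in control total, and the groups overlapped. They also overlapped in cells with no dendritic gene (0.430 and 0.369% against 0.376 and 0.744%).

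The C1q-negative cells held the gap as the class was chosen, and control total 2 set most of it. They were 0.143 and 0.265% of kept cells in cKO total 1 and 2 (15 and 28 cells) and 0.303 and 0.856% in control total 1 and 2 (29 and 99 cells, exact permutation p = 0.3333). Without control total 2 the difference shrank from -0.376 to -0.0993 percentage points. The groups overlapped in cells with no B cell UMI and under 5 S100a8 and S100a9 UMIs (0.115 and 0.217% against 0.199 and 0.657%), in thinned cells (0.0685 and 0.144% against 0.129 and 0.290%) and in cells with no dendritic gene (0.105 and 0.198% against 0.157 and 0.528%). C1q-positive cells were 0.420 and 0.265% in cKO total (44 and 28 cells) and 0.324 and 0.251% in control total (31 and 29 cells), with overlapping groups. C1q-positive cells were therefore 74.6% (61.6 to 85.0%) and 50.0% (36.3 to 63.7%) of the class in cKO total 1 and 2 and 51.7% (38.4 to 64.8%) and 22.7% (15.7 to 30.9%) in control total 1 and 2. The cKO library was higher within batch 1 and within batch 2, but the groups overlapped (62.3 ± 17.4% against 37.2 ± 20.5%, SD, n = 2 each, exact permutation p = 0.667). The difference of 25.1 percentage points was between 10.6 (without control total 2) and 39.6 (without control total 1) when each library was left out in turn, with 12.8 without cKO total 1 and 37.4 without cKO total 2. The thinned shares were 84.8 and 55.9% against 58.6 and 40.0%.

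**Figure D1:**
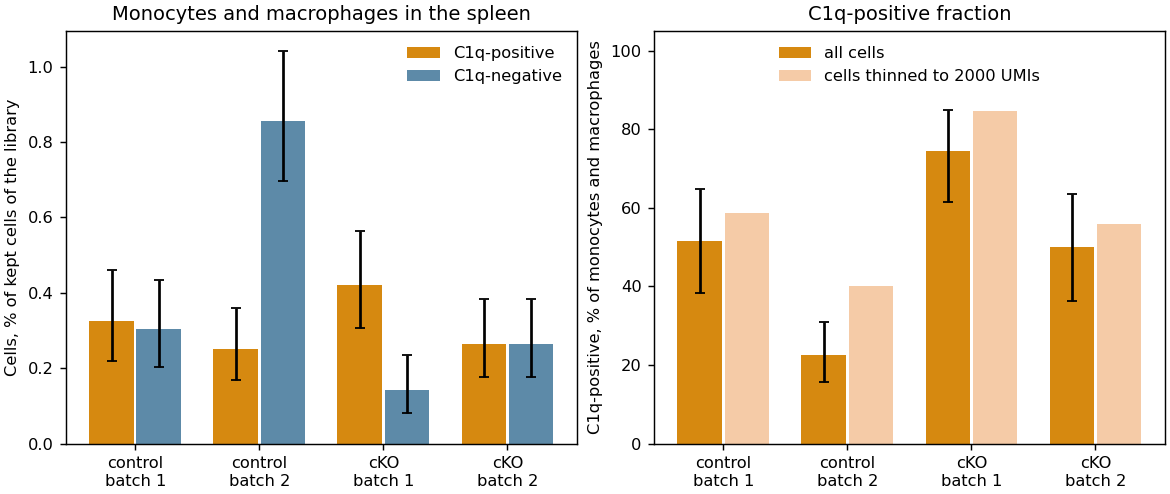
Left, C1q-positive and C1q-negative cells as a percentage of the kept cells of each total library, with 95% exact intervals as bars. Right, C1q-positive cells as a percentage of all monocytes and macrophages, for all cells with 95% exact intervals and for cells thinned to 2000 UMIs; control total of batch 2 has the lowest value on the right and, at 0.856%, the highest C1q-negative bar on the left.

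The genes that chose the class are given first, as a description, since their levels in it were set by the rule. Csf1r, the receptor for the growth factor that keeps these cells alive, had a UMI in 84.7 and 89.3% of the cells in cKO total and 80.0 and 93.8% in control total, against 0.276 to 1.11% of B cells. Lyz2, which encodes lysozyme, had a UMI in 54.2 and 83.9% and in 73.3 and 89.1%, against 2.27 to 7.34% of B cells, and C1qa in 71.2 and 42.9% and in 46.7 and 22.7%, against 0.318 to 1.31%. The median depth was 3952 and 8034.5 UMIs in cKO total and 5902.5 and 7297.5 in control total. In the B cells of the same libraries it was 5705, 6280, 5869.5 and 4646 UMIs. C1q-positive cells were shallower (medians of 2513.5 and 4679 in cKO total, 2026 and 3366 in control total) than C1q-negative cells (7645 and 8396, 7527 and 7911).

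Cd74, the chaperone of MHC class II, was not used by the rule. In CPM before library scaling it was at 1761 to 4067 in C1q-positive and 1137 to 3183 in C1q-negative cells, and at 10517.5 to 14271 in the 80 cells set aside for dendritic genes. Csf1r and Cd79a, a B cell receptor component, were used by the rule, so their order is a description. Csf1r was at 582 to 1051 in C1q-positive and 453 to 768 in C1q-negative cells, at 204 to 450 in the cells set aside for dendritic genes and at 0 to 159 in the 136 cells set aside for S100a8 and S100a9. Those 136 cells were 53 and 6 in cKO total 1 and 2 and 76 and 1 in control total 1 and 2, and the value of 0 is from that 1 cell. Cd79a was at 9.16 to 40.4 and 13.4 to 30.7 in the class and at 1768 to 2219 in B cells. The borders were populated: 38 cells had exactly 2 UMIs of Csf1r and the C1q genes and 36 further cells that met every other condition had 1, while 97 cells had 1 of the dendritic genes and 34 cells set aside had 2.

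C1q-positive cells expressed the genes of red pulp macrophages. Vcam1, an adhesion molecule of red pulp macrophages, was at 3241 and 2195 CPM in cKO total 1 and 2 and at 2572 and 1939 CPM in control total 1 and 2, against 0, 4.29, 9.46 and 1.48 CPM in the C1q-negative cells of the same libraries. Spic was at 1369 and 1121 CPM in cKO total and 772 and 871 CPM in control total, and at 18.9 to 32.6 CPM in C1q-negative cells. Hmox1 was at 4085 and 2516 CPM and at 1935 and 3461 CPM, and at 76.0 to 182 CPM in C1q-negative cells. Every library showed the same order for these 3 genes, with no value of the C1q-negative cells near the lowest of the C1q-positive cells.

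Ferroportin (Slc40a1) reached 1028 to 2024 CPM in C1q-positive cells and at most 43.4 CPM in C1q-negative cells, and the integrin subunit Itgad, which marks red pulp macrophages, 394 to 1282 CPM against at most 1.48 CPM. Of 12 genes of the red pulp and iron-handling list with a mean level of at least 20 CPM, 11 were higher in C1q-positive than in C1q-negative cells in 4 of 4 libraries, where 16.7% of all 7251 such genes were. Of 11 genes of the efferocytosis and scavenger list with that mean level, 3 were higher in C1q-positive cells in 4 of 4 libraries: the mannose receptor Mrc1 at 674 to 1507 CPM, and Mertk and Axl, which bind dying cells, at 401 to 1187 CPM and 386 to 721 CPM. Another 2 were higher in C1q-negative cells in 4 of 4 libraries, the bridging protein Pros1 (31.1 to 94.6 against 5.84 to 11.2 CPM) and the signalling adaptor Tyrobp (2761 to 3589 against 2125 to 3022 CPM). Lysosomal genes were higher in C1q-positive cells in 4 of 4 libraries for 11 of 18 genes and MHC class II genes for 5 of 9.

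C1q-negative cells carried the monocyte genes. Ly6c2 was at 608 and 570 CPM in cKO total and 369 and 336 CPM in control total, against 146 and 374 CPM and 67.1 and 280 CPM in C1q-positive cells. Ace, which encodes an enzyme of non-classical monocytes, was at 315 and 313 CPM and at 586 and 431 CPM, against 40.9 to 144 CPM. Krt80, a keratin gene, was at 194 to 250 CPM against 0 to 35.0 CPM, and Pglyrp1, a secreted protein that binds bacterial cell wall, at 279 to 378 CPM against 81.7 to 109 CPM. Of the classical list 5 of 10 genes and of the non-classical list 8 of 13 were higher in C1q-negative cells in 4 of 4 libraries, where 14.4% of all genes were, and 0 of either list were higher in C1q-positive cells in 4 of 4. Lyz2 was at 9626 to 21155 CPM in C1q-negative and at 3903 to 9854 CPM in C1q-positive cells, but the rule asks for Lyz2 in cells without C1qa and C1qb, so this order is partly set by it.

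**Figure D2:**
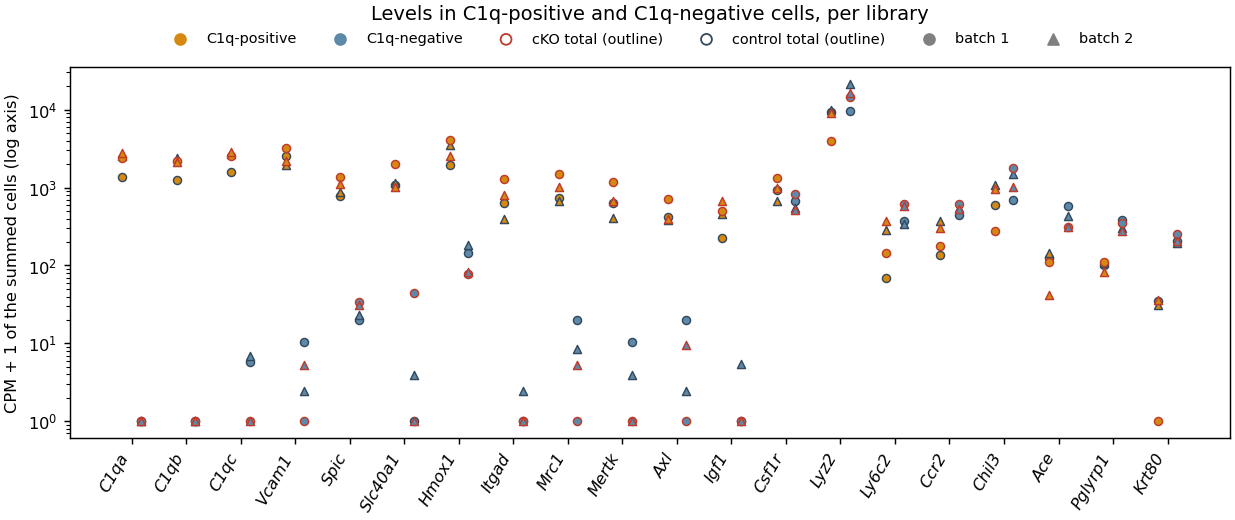
Level of 20 genes in the summed C1q-positive (orange) and C1q-negative (blue) cells of each total library, as CPM + 1 on a log axis; the outline gives the genotype and the shape the batch. The genes from Vcam1 to Igf1 separate the colours in every library, whereas Csf1r lies between 515 and 1325 CPM in both.

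The C1q-positive cells were not uniform. Of the 132 cells, 111 had a UMI of Vcam1 or Spic, 66 had a UMI of Lyz2 and 113 had a UMI of C1qc, which the rule did not use. The share with Vcam1 or Spic was 93.2% and 67.9% in cKO total 1 and 2 and 83.9% and 86.2% in control total 1 and 2, and in C1q-negative cells it was 6.90 to 14.3%. The cells without either gene were deeper in every library, with median depths of 5149 and 9577 UMIs in cKO total and 7536 and 4853.5 in control total against 2424 and 3371, and 1601 and 3366, in the cells with one. Only 11 C1q-positive cells rested on a single UMI of C1qa or C1qb, 5 of them in cKO total 2. A single cell of cKO total 2 held 274 C1qa and C1qb UMIs, 32.5% of that library's sum, and the highest cell of the other libraries held 11.5 to 19.7%.

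The 3 chains of C1q are encoded side by side on chromosome 4, on the minus strand of GRCm38 (GENCODE vM21): C1qa at chr4:136895917-136898803, C1qc at chr4:136889804-136893065 and C1qb at chr4:136880129-136886187. In C1q-positive cells the C1qa, C1qb and C1qc sums were 333, 303 and 349 UMIs in cKO total 1 and 475, 368 and 490 in cKO total 2. They were 122, 111 and 142 in control total 1 and 336, 315 and 357 in control total 2. Of all C1q UMIs, C1qa took 32.5 to 35.6%, C1qb 27.6 to 31.3% and C1qc 35.4 to 37.9%, so the proportions of the chains were nearly the same in cKO and control. The start regions of C1qb and C1qc are shown because the C1q genes divide the class (that of C1qa is not shown); capitals mark GAGGAA or its reverse complement TTCCTC, a core bound by the myeloid factor PU.1, searched on both strands in the window from 250 bases before to 50 bases after the start (RefSeq, GRCm38.p6, minus strand).
C1qb, chr4:136886151-136886450: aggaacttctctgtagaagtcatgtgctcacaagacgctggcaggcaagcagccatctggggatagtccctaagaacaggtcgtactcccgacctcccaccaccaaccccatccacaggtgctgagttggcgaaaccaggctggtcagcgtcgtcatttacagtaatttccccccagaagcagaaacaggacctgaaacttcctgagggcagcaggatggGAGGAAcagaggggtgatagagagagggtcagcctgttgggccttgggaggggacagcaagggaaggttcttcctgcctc
C1qc, chr4:136892865-136893164: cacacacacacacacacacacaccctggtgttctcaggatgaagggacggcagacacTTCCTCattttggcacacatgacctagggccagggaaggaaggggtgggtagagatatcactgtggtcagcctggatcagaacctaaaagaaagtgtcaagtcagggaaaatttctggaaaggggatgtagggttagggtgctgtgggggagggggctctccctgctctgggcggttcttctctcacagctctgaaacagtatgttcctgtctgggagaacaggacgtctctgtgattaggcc
The match lies at base 221 of the C1qb window and, on the reverse strand, at base 58 of the C1qc window. RefSeq and GENCODE place these starts differently, and the RefSeq start used for the C1qc window lies inside the GENCODE span of the gene given above. GAGGAA occurs in 28.3% of the 32851 mouse promoters of this table. These matches are descriptions of the letters and not measured sites.

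The 5 genes of the marginal zone macrophage list were uneven. Cd209b, the lectin SIGN-R1 of these cells, had 0 UMIs in all 303 cells, and Siglec1, the sialoadhesin of the metallophilic macrophages beside them, had at most 2 UMIs per library in C1q-positive cells. Cxcl13, a chemokine that draws B cells, had 0 UMIs in the C1q-positive cells of cKO total and 3 and 1 in those of control total. Marco, a scavenger receptor of marginal zone macrophages, had 8 and 19 UMIs in the C1q-positive cells of cKO total and 2 and 15 in those of control total. Nr1h3, the nuclear receptor LXRα, was at 342 and 286 CPM in the C1q-positive cells of cKO total and 157 and 136 CPM in those of control total, with the groups apart (log2 1.03 ± 0.403, edgeR adjusted p = 1.00), and at 2.96 to 43.4 CPM in C1q-negative cells. Marco and Nr1h3, the 2 genes of the list with a mean of at least 20 CPM, were higher in C1q-positive cells in 4 of 4 libraries.

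Hemoglobin RNA stood out in C1q-positive cells. It took 5.09 and 0.350% of their UMIs in cKO total 1 and 2 and 1.08 and 0.399% in control total 1 and 2, at most 0.0031% in C1q-negative cells and 0.0088 to 0.047% in B cells. A single cell held 48.2 and 76.1% of it in cKO total and 99.2 and 56.5% in control total, and the median C1q-positive cell had none. The share of cells with a hemoglobin UMI was 31.8 and 39.3% in C1q-positive cells of cKO total and 22.6 and 37.9% in those of control total, against 0 to 10.7% of C1q-negative and 6.79 to 14.4% of B cells. The source of this RNA was not tested.

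Markers of other cells were low in C1q-negative cells and uneven in C1q-positive cells. The rule itself limited 7 of the 10 conventional dendritic cell genes, 2 of the 10 B cell genes and 2 of the 10 neutrophil genes, so the sums of these lists were partly set by it. In C1q-negative cells the 10 B cell genes summed to 511 to 550 CPM and the 10 conventional dendritic cell genes to 97.7 to 163 CPM, with Clec9a and Xcr1 at 0. The 8 NK cell genes summed to 0 to 16.3 CPM, the 10 neutrophil genes to 142 to 232 CPM and the 6 platelet genes to 0. In C1q-positive cells the B cell genes summed to 677 and 706 CPM in cKO total and to 6576 and 644 CPM in control total. The NK cell genes summed to 568 and 11.7 CPM in cKO total and to 33.6 and 1037.7 CPM in control total. The conventional dendritic cell genes summed to 160 and 245 CPM in cKO total and to 459 and 83.3 CPM in control total, and the 6 plasma cell genes to 1230 CPM in control total 1 and 205 to 286 CPM in the others. Control total 1 thus stood apart for B cell, plasma cell and dendritic cell genes, and control total 2 and cKO total 1 for NK cell genes; the part of these cells in the values below was not tested.

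Genotype was first compared in the summed class. Of 5794 genes that passed the filter on low counts, 0 passed an adjusted p of 0.05 (0.0%, edgeR quasi-likelihood test), and DESeq2 called 20 (0.345%). An unadjusted p under 0.05 was reached by 302 genes (5.21%), 203 higher (3.50%) and 99 lower in cKO (1.71%). Batch 1 and batch 2 of the labels each hold 1 library of each genotype, and with the batch as a replicate block 239 genes passed (4.12%), 173 higher (2.99%) and 66 lower (1.14%). The block adds a term to a fit of 4 libraries, so its p-values rest more on spread borrowed across genes. Leaving out a library called 30 genes without cKO total 1, 80 without cKO total 2, 147 without control total 1 and 29 without control total 2.

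The 5 genes with the lowest p among those higher in cKO were Il1a, C1qa, Igf1, Fcna and C1qc. Il1a, which encodes the alarm cytokine interleukin-1α (chr2:129299610-129309972), was at 174 and 96.9 CPM in cKO total and at 12.3 and 19.7 CPM in control total. Its groups did not overlap, with a log2 difference of 2.68 ± 0.412 (SE, edgeR adjusted p = 0.109, and 3.69e-09 with the replicate block), on 43 and 42 UMIs in 6 and 7 cells against 4 and 17 UMIs in 3 cells each, 14 of the 17 in 1 cell. C1qa was at 1346 and 1096 CPM against 376 and 389 CPM (log2 1.66 ± 0.283), but the rule used C1qa to admit cells, so these values are a description without a test. Igf1, a growth factor made by macrophages, was at 275 and 268 CPM against 61.6 and 74.1 CPM (log2 1.91 ± 0.330). Fcna, which encodes the lectin ficolin A, was at 517 and 339 CPM against 120 and 101 CPM (1.92 ± 0.341), and C1qc at 1410.3 and 1130.3 CPM against 440 and 418 CPM (1.56 ± 0.282). Their adjusted p was 0.109 each, and 5.81e-09, 4.08e-10 and 1.69e-12 with the block. In C1q-positive cells alone Igf1 was at 495 and 677 CPM in cKO total and 224 and 462 CPM in control total. Fcna was there at 932 and 858 CPM against 425 and 659 CPM. C1q-negative cells held Igf1 at 4.45 CPM at most and Fcna at 4.73 CPM at most. C1qc kept nearly the same proportion to C1qa and C1qb in every library, so its values are not free of the rule.

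Lowest in p among the genes lower in cKO were G0s2, Setbp1, Alcam, Klf9 and Prr5l, of which G0s2, a brake on fat breakdown, was at 16.2 and 20.8 CPM in cKO total and 102 and 68.3 CPM in control total. Its log2 difference was -1.91 ± 0.415 (edgeR adjusted p = 0.144, and 0.000143 with the block). Setbp1 was at 24.2 and 11.5 CPM against 105 and 66.0 CPM (-2.06 ± 0.453), and the adhesion molecule Alcam at 129 and 168 CPM against 462 and 302 CPM (-1.31 ± 0.342). B cells of these libraries held Setbp1 at 143 to 300 CPM and Alcam at 99.5 to 152 CPM. Klf9, a zinc finger factor, had a log2 difference of -1.44 ± 0.383, and Prr5l, a partner of the kinase complex mTORC2, of -1.55 ± 0.431, with the groups apart in both.

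These differences followed the line between the C1q states. Of the 203 genes higher in cKO at an unadjusted p under 0.05, 166 (81.8%) were higher in C1q-positive than in C1q-negative cells in 4 of 4 libraries, where 15.2% of all 5794 tested genes were. Of the 173 called higher with the block it was 155 (89.6%). Of the 99 lower at an unadjusted p under 0.05, 53 (53.5%), and of the 66 called lower with the block, 46 (69.7%), were higher in C1q-negative cells in 4 of 4 libraries, where 16.2% of all were. Of the UMIs summed over the class, C1q-positive cells gave 173228 of 273487 in cKO total 1 and 190052 of 454934 in cKO total 2. They gave 109141 of 337517 in control total 1 and 151265 of 899324 in control total 2. A larger C1q-positive part raises the genes of these cells in the sum, so the counts above are a description and not a test. In a sum over cells of both states, more cells of a state and more RNA per cell cannot be told apart. Spic, at 772 and 459 CPM in cKO total and 225 and 150 CPM in control total, had a log2 difference of 1.70 ± 0.351 in the class (adjusted p = 0.127, and 2.79e-10 with the block) and of 0.59 ± 0.320 in C1q-positive cells alone (adjusted p = 1.00).

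The red pulp and iron-handling list was compared in the class and in each C1q state. In the summed class 12 of its 14 genes could be tested, 11 higher and 1 lower in cKO, with a median log2 difference of 1.27 beside -0.01 over all tested genes, and 10 of the 12 had both cKO libraries above both controls, where 16.5% of all genes did. The block called 8 of them higher, where it called 2.99% of all genes: Spic, Vcam1, Slc40a1, Cd5l, Blvrb, Fth1, Ftl1 and Itgad. In C1q-positive cells the same 12 genes had a median of 0.34 beside -0.01, 5 had the cKO libraries above the controls, where 14.1% of all genes did, and 0 were called with or without the block. Leaving out each library in turn moved the medians to between 0.72 (without cKO total 1) and 1.64 (without cKO total 2) in the class and to between 0.11 (without cKO total 1) and 0.57 (without cKO total 2) in C1q-positive cells. In C1q-negative cells 5 genes of the list could be tested, all 5 lower in cKO, with a median of -0.53, 0 called and 3 with both cKO libraries below both controls, where 15.1% of all genes were. Hmox1, at 76.0 and 81.5 CPM against 142 and 182 CPM there, had a log2 difference of -0.99 ± 0.411 (edgeR adjusted p = 0.999). In the class the median was 0.62 after thinning and 0.60 in cells with no dendritic gene. C1qa, which the rule used for the class and for the C1q states, went from 1.66 in the class to 0.40 ± 0.348 in C1q-positive cells, at 2425 and 2773 CPM in cKO total against 1364.5 and 2545 CPM in control total, with overlapping groups.

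**Figure D3:**
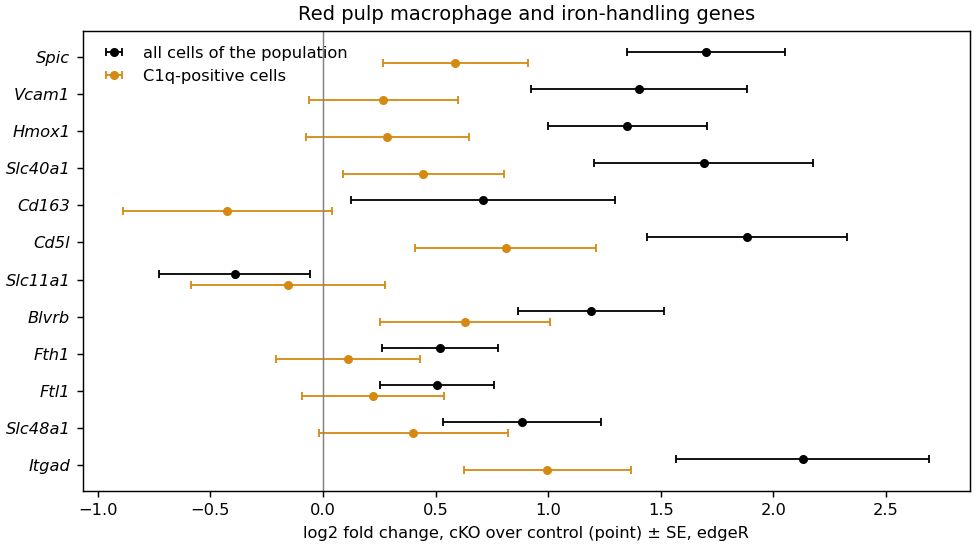
log2 fold change of cKO over control (edgeR, n = 2 libraries each) for the 12 tested genes of the red pulp and iron-handling list. Black points are all monocytes and macrophages, orange points the C1q-positive cells, and bars the SE taken from the F value of the test. Every orange point except that of Slc11a1 lies left of its black one, and the medians are 0.34 and 1.27.

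In C1q-positive cells alone, 3179 genes were tested and 0 were called (0.0%), by edgeR with and without the block and by DESeq2, while 81 had an unadjusted p under 0.05 (2.55%), 40 of them higher (1.26%) and 41 lower (1.29%). Leaving out a library called 4 genes without cKO total 1, 7 without cKO total 2, 13 without control total 1 and 19 without control total 2. The genes named next are therefore values and not calls.

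Tbxas1, thromboxane A synthase, had the lowest p among genes higher in cKO, at 947 and 531 CPM in cKO total and 257 and 174 CPM in control total (log2 1.72 ± 0.409, edgeR adjusted p = 1.00). A single cell gave 49 of its 130 UMIs in cKO total 1 and 58 of 91 in cKO total 2. Apoc1, an apolipoprotein gene, was at 328 and 199 CPM against 78.3 and 53.0 CPM (1.80 ± 0.463), and 28 of its 34 UMIs in cKO total 2 came from 1 cell. The ubiquitin-like modifier Ubd was at 233 and 87.6 CPM against 22.4 and 30.3 CPM (2.04 ± 0.548), and the kinase gene Stk39 at 160 and 117 CPM against 44.7 and 30.3 CPM (1.56 ± 0.473). The Ubd difference was 1.30 without cKO total 1. Il1a, at 313 and 245 CPM against 44.7 and 121 CPM, kept a log2 difference of 1.53 ± 0.468 within these cells, with the groups apart but an adjusted p of 1.00. A single cell gave 14 of its 16 UMIs in control total 2, and without that library the difference was 2.29.

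On the lower side, Ccl9, a chemokine of macrophages, was at 43.7 and 46.7 CPM in cKO total and at 213 and 280 CPM in control total. Its log2 difference of -2.13 ± 0.437 had the lowest p of all 3179 genes (edgeR adjusted p = 0.703) on 6 and 8 against 19 and 37 UMIs, of which 1 cell gave 14 in control total 1 and 13 in control total 2. The integrin subunits Itga4 (488 and 362 CPM against 1129.6 and 765 CPM, log2 -1.13 ± 0.355) and Itgal (160 and 111 CPM against 313 and 333 CPM, -1.18 ± 0.406) were the next with a known part in adhesion. Vamp4, a vesicle fusion protein, had a difference of -1.24 ± 0.421 and Chd7, a chromatin remodeller, of -1.39 ± 0.497 (-0.63 without control total 1), and B cells held all but Ccl9 of these genes at 37.5 CPM or more.

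Interferon-stimulated genes gave a positive median in the C1q-positive cells with 0 called. Of the 19 genes of the list in the files 7 could be tested, and all 7 had a positive log2 difference, with a median of 0.73 beside -0.01 over all genes, and 4 had both cKO libraries above both controls, where 14.1% of all genes did. Leaving out each library in turn moved the median to between 0.18 (without control total 1) and 1.39 (without control total 2), with 0.34 without cKO total 2. The summed level of the list was 2760 and 3690 CPM in cKO total and 1186 and 2825 CPM in control total, with overlapping groups. Among genes too low to test, Ifit3 was at 29.1 and 64.2 CPM in cKO total and 11.2 and 288 CPM in control total, and Ifit1 at 51.0 and 23.4 CPM against 0 and 129 CPM, so that control total 2 was highest in both. Ifi27l2a was at 823 and 1576 CPM in cKO total and 503 and 803 CPM in control total (log2 0.86 ± 0.381, edgeR adjusted p = 1.00), and the chemokine Cxcl10 at 299 and 286 CPM against 78.3 and 250 CPM (0.73 ± 0.466). In C1q-negative cells 4 of the 7 tested genes were higher and 3 lower, with a median of 0.08 (-0.57 without cKO total 2), and Ifi27l2a was at 977 and 1153 CPM against 525 and 992 CPM.

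Uptake receptors gave a positive median that rested on cKO total 1. Of the 8 tested genes for efferocytosis, the engulfment of dying cells, and for scavenging, 6 were higher and 2 lower in cKO C1q-positive cells, with a median log2 difference of 0.52 and 0 called. Without cKO total 1 the median was -0.0033. Mertk, which binds dying cells through bridging proteins, was at 1187 and 671 CPM against 626 and 401 CPM (0.84 ± 0.379). Mrc1 was at 1507 and 1010 CPM against 727 and 674 CPM (0.83 ± 0.335), and Timd4, a receptor for phosphatidylserine, at 102 and 251 CPM against 101 and 22.7 CPM (1.43 ± 0.576). These 3 were the genes of the 8 with both cKO libraries above both controls, where 14.1% of all genes were. Fc receptors gave 5 of 6 higher with a median of 0.26, complement 5 of 8 with 0.25, C1qa and C1qb of the rule among its genes, and lysosomal genes 12 of 18 with 0.13, where 48.6% of all genes were higher. Each of these 3 medians fell below 0 when 1 library was left out, with lowest values of -0.15, -0.11 and -0.04.

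Antigen presentation did not move one way in the C1q-positive cells. MHC class II gave 3 genes higher and 4 lower (median -0.15), MHC class I 3 higher and 8 lower (median -0.10) and costimulation 3 higher and 2 lower (median 0.33). H2-Aa was at 648 and 2429 CPM in cKO total and 2315 and 1583 CPM in control total, a spread between libraries of 1 genotype that exceeded the difference between genotypes. Cytokines and chemokines gave 3 higher and 8 lower (median -0.26). The chemokine Ccl3 was at 102 and 11.7 CPM against 503 and 129 CPM (log2 -2.22 ± 0.889, adjusted p = 1.00) and Il1b, which encodes interleukin-1β, at 998 and 1115 CPM against 1129.6 and 962 CPM. Toll-like receptors gave 2 higher and 4 lower (median -0.13) and the eIF3 subunits 7 higher and 3 lower (median 0.02). The medians of these 6 lists all changed sign when 1 library was left out, with ranges of -0.83 to 0.53 for MHC class II, -0.21 to 0.02 for MHC class I, -0.07 to 0.85 for costimulation and -0.65 to 0.08 for cytokines and chemokines.

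In C1q-negative cells 4202 genes were tested and 1 was called, lower in cKO (0.0238%): Ccl4, a chemokine that draws lymphocytes and monocytes (chr11:83662584-83664683). Ccl4 was at 10.9 and 12.9 CPM in cKO total and at 94.6 and 139 CPM in control total, a log2 difference of -2.76 ± 0.524 (edgeR adjusted p = 0.0215). C1q-positive cells held 30 and 13 Ccl4 UMIs in cKO total 1 and 2 and 54 and 22 in control total 1 and 2. The cKO count was lower there in each batch, with overlapping groups. The counts behind the C1q-negative difference were 1 and 3 UMIs against 20 and 94. A single cell gave 18 of the 20 in control total 1 and 29 of the 94 in control total 2. Over the 9 alternatives that could test it the adjusted p ran from 1.52e-05 (replicate block) to 1.00 (DESeq2) and 5 passed. The call was lost without cKO total 2 (log2 -2.90, adjusted p = 0.942), without control total 2 (-2.16, 0.237), with C1q-positive cells counted from 3 UMIs (-1.68, 0.281) and by DESeq2 (-3.27). In stricter choices of cells the gap within batch 1 shrank or was gone. With no B cell UMI and under 5 S100a8 and S100a9 UMIs the counts were 1 and 2 UMIs in cKO total 1 and 2 against 0 and 75 in control total 1 and 2. Without the deepest cells they were 1 and 3 against 2 and 94, and in cells with no dendritic gene 0 and 3 against 2 and 62.

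Ccl4 included, 99 genes had an unadjusted p under 0.05 (2.36%), 35 higher (0.833%) and 64 lower (1.52%), and DESeq2 called 0. With the replicate block 12 genes passed (0.286%), 8 higher (0.190%) and 4 lower (0.0952%). Leaving out a library called 12 genes without cKO total 1, 1 without cKO total 2, 7 without control total 1 and 23 without control total 2.

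Il4i1, an enzyme that oxidises amino acids and is induced by interleukin-4 (chr7:44816387-44840809), was at 54.3 and 103 CPM in cKO total and at 0 in both control libraries. Over the pooled libraries its level in cKO was 25.8-fold that of 3 UMIs over the control group. That floor takes UMIs as independent, which UMIs of 1 cell are not, so it bounds no fold difference. Il4i1 had its 5 and 24 UMIs in 2 and 7 cells, with 4 and 13 of them from 1 cell each. It missed the threshold (edgeR adjusted p = 0.113, log2 3.77 ± 0.832) and passed with the block (2.74e-06), without cKO total 1 (0.00445), without control total 1 (7.71e-05) and without control total 2 (0.00282), but not with RLE size factors (0.104) or by DESeq2 (0.0534), and without cKO total 2 it was too low to test. A fit without a library takes the spread from the 2 libraries of the other group and assumes that the lone library varies alike, here and in the other edgeR fits of cKO against control with a library left out. B cells of the same libraries held Il4i1 at 190 and 389 CPM in cKO total and at 42.0 and 58.6 CPM in control total, the same order as in the C1q-negative cells. C1q-positive cells held it at 29.1 and 64.2 CPM and at 157 and 7.57 CPM, with overlapping groups. The part of B cell RNA in it was not tested. In the C1q-negative cells with no UMI of any dendritic gene the counts were 4 and 4 UMIs against 0 and 0.

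F5, the gene of coagulation factor V, was at 391 and 197 CPM in cKO total and at 52.0 and 104 CPM in control total (log2 1.68 ± 0.408, edgeR adjusted p = 0.176, and 0.000294 with the block), and B cells held it at 0.747 to 2.48 CPM. Bmp2k, a kinase of vesicle transport, was at 163 and 81.5 CPM against 33.1 and 23.7 CPM (1.83 ± 0.449, adjusted p = 0.176, and 0.0145 with the block), with 214 to 420 CPM in B cells. Gpr183, a receptor for oxysterols that positions immune cells, and Etv3, a repressor of the ETS family, had differences of 1.32 ± 0.427 and 1.28 ± 0.433 and passed neither fit. With a library left out the Gpr183 difference ran from 0.92 to 2.25 (without control total 2) and that of Etv3 from 0.37 (without cKO total 2) to 1.80. F5 was thus the gene of these 5 with the least counterpart in B cells.

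**Figure D4:**
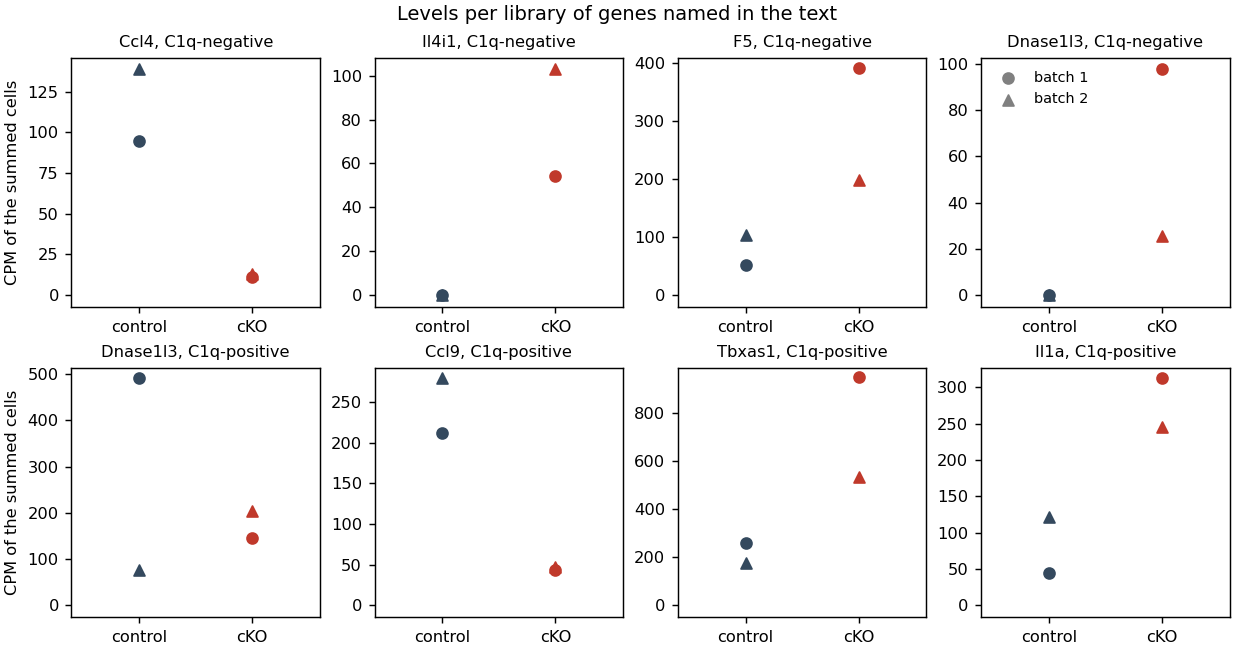
CPM of the summed cells in each total library for genes named in the text, with control on the left and cKO on the right of each panel and the batch given by the shape. Ccl4 and Ccl9 are lower and Il4i1, F5, Tbxas1 and Il1a higher in both cKO libraries; Dnase1l3 is at 0 in the control C1q-negative cells and overlaps in the C1q-positive cells.

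In C1q-negative cells the monocyte lists were compared by their log2 differences, with 0 genes called. All 10 classical genes had a positive log2 difference (median 0.30 beside 0.00 over all genes) and 12 of 13 non-classical genes a negative one (median -0.22). Of these, 3 classical genes had both cKO libraries above both controls, where 12.4% of all genes did, and 5 non-classical genes had them below, where 15.1% did. Leaving out each library in turn moved the classical median to between 0.07 (without control total 1) and 0.70 (without control total 2), and the non-classical median to between -0.41 (without cKO total 2) and -0.26 (without control total 1). The summed level of the classical list overlapped, at 5939 and 4751 CPM in cKO total and 3376 and 4954 CPM in control total. In the whole class 2 of its genes were higher and 8 lower in cKO (median -0.11), and in C1q-positive cells 3 were higher and 6 lower (median -0.28). Of the non-classical list 12 of 13 were lower in the class (median -0.41), 9 with both cKO libraries below both controls, where 16.2% of all genes were. The block called 2 of these lower, where it called 1.14% of all genes. In C1q-positive cells 4 non-classical genes were higher and 7 lower (median -0.11). Ly6c2, whose values are given above, had a difference of 0.73 ± 0.330, and Vcan, a matrix proteoglycan, was at 109 and 68.6 CPM against 33.1 and 50.4 CPM (0.82 ± 0.440). Ace had -0.67 ± 0.345, and Ear2, a ribonuclease of non-classical monocytes, was at 250 and 330 CPM against 515 and 457 CPM (-0.70 ± 0.345). The edgeR adjusted p was 0.999 for each of these 4.

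The classical range was also counted in single cells. Each cell was put in the classical or the non-classical range by the larger of its UMI sums over the lists, which gives a range and not a type. In C1q-negative cells the classical range held 40.0 and 46.4% in cKO total (6 and 13 cells) and 20.7 and 37.4% in control total (6 and 37 cells), with the groups apart (43.2 ± 4.55% against 29.0 ± 11.8%, SD, n = 2 each, exact permutation p = 0.3333). The difference of 14.2 percentage points was 5.84 without control total 1 and 22.5 without control total 2. Thinned to 2000 UMIs the shares were 14.3 and 33.3% against 16.7 and 45.5%, and without the deepest cells 12.5 and 48.0% against 17.9 and 36.7%. In cells with no dendritic gene they were 27.3 and 47.6% against 26.7 and 36.1%. The groups overlapped in each of these choices. Over all 303 cells the classical range held 15.3 and 32.1% against 15.0 and 32.0%, which set batch 1 apart from batch 2 and not cKO from control.

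In C1q-negative cells MHC class I and costimulation had medians of 0.06 and 0.04, while MHC class II had a positive median that rested on cKO total 2. All 7 tested MHC class II genes had a positive log2 difference (median 0.44), but H2-Aa was at 304 and 2122 CPM in cKO total and at 827 and 806 CPM in control total, so that 1 cKO library lay below and the other above the controls. Without cKO total 2 the median was -0.73. H2-DMb1, a peptide-loading factor, was the only 1 of the 7 with both cKO libraries above both controls, where 12.4% of all genes were, at 174 and 189 CPM against 56.7 and 130 CPM (0.82 ± 0.400, adjusted p = 0.999). Of all genes tested in these cells 50.4% were higher in cKO. Fc receptors gave 0 higher and 6 lower with a median of -0.15, and lysosomal genes 11 of 18 higher with 0.10 (-0.09 without cKO total 2). Interleukin-1β (Il1b) was at 1151 and 1299 CPM against 591 and 1063 CPM (0.55 ± 0.309). Fos, an immediate early factor whose RNA can rise during cell isolation, was at 2801 and 4129 CPM against 1896 and 2639 CPM (0.61 ± 0.283, adjusted p = 0.999, and 0.0115 with the block), and 9 of 14 immediate early and NF-kB genes were higher. Cd36, a scavenger receptor for lipids, was at 228 and 206 CPM against 667 and 316 CPM (-1.14 ± 0.381, adjusted p = 0.999, and 0.0502 with the block).

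**Figure D5:**
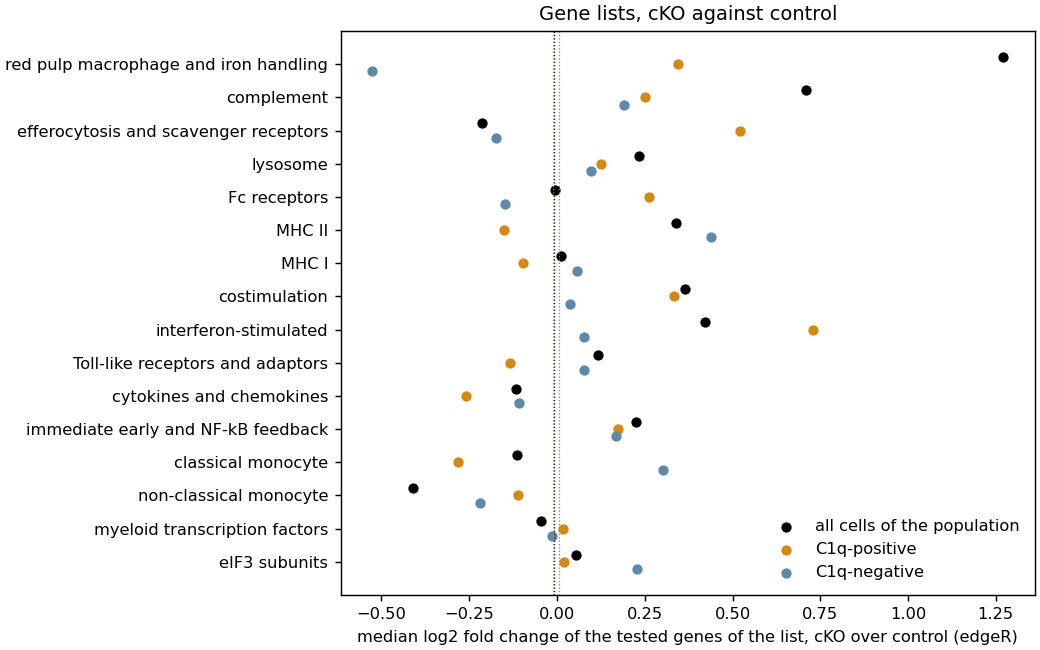
Median log2 fold change of cKO over control for the tested genes of 16 lists in all monocytes and macrophages (black), C1q-positive (orange) and C1q-negative cells (blue), with dotted lines at the median of all tested genes. The black point of the red pulp list is at 1.27 and its orange point at 0.34, the interferon list is highest in orange at 0.73, and the classical and non-classical lists lie at 0.30 and -0.22 in blue.

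Whether the genotype difference itself differed between the C1q states was tested in a model with a term for each library. Of 4215 genes 1 was called (0.0237%, edgeR): Dnase1l3, which encodes a secreted nuclease that digests DNA of dying cells (chr14:7964533-7994573). DESeq2 called 0, and 176 had an unadjusted p under 0.05 (4.18%), 103 with the more positive difference in C1q-positive cells (2.44%) and 73 with the more negative (1.73%). In C1q-positive cells Dnase1l3 was at 146 and 204 CPM in cKO total and at 492 and 75.7 CPM in control total. C1q-negative cells held it at 97.7 and 25.7 CPM in the cKO libraries and at 0 in both controls. The log2 difference of the C1q-positive cells minus that of the C1q-negative cells was -2.68 ± 0.514 (adjusted p = 0.0197). The C1q-negative counts were 9 and 6 UMIs, each from 1 cell. Their pooled level was 13.4-fold that of 3 UMIs over the controls. That floor takes the UMIs of a cell as independent, so it bounds no fold difference. In control total 1, 27 of the 44 UMIs of C1q-positive cells were in 1 cell.

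The Dnase1l3 call passed in 5 of 12 alternatives, with adjusted p from 2.00e-05 to 1.00. The log2 difference was smaller without cKO total 1 (-1.86, adjusted p = 0.161), without control total 1 (-1.62, 0.346), in cells with no dendritic gene (-1.78, 0.828) and after thinning (-2.08, 0.491), and the call was lost in each. The call was lost with the difference about as large without the deepest cells (-2.80 ± 1.66, 1.00) and with no B cell UMI and under 5 S100a8 and S100a9 UMIs (-2.71 ± 0.552, 0.0837). It was also lost by DESeq2 (-6.85 ± 1.86, 0.951), whose difference was fitted without the prior count and is not on the scale of the edgeR values. The cells set aside for dendritic genes held Dnase1l3 at 327 and 115 CPM in cKO total and at 443 and 84.0 CPM in control total. In C1q-positive cells Dnase1l3 and Il4i1 were highest in control total 1 and lowest in control total 2, as the dendritic cell genes were, and the part of dendritic cells in them was not tested. The 6 C1q-negative UMIs of cKO total 2 were 0 without the deepest cells and in cells with no dendritic gene. Leaving out a library called 1 gene without cKO total 1, 9 without cKO total 2, 1 without control total 1 and 10 without control total 2. Next by p were Il4i1 (-3.27 ± 0.742, adjusted p = 0.106, and -1.56 without control total 1), Bmp2k (-2.22 ± 0.575), Ccl9 (-1.90 ± 0.501) and Sbf2, a myotubularin-like protein (2.67 ± 0.726, and 1.58 without control total 2), the last 3 with an adjusted p of 0.382.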

How the data were processed

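The authors deposited a matrix of UMI counts (gene by barcode, not normalized) for each of 8 libraries, made with the SeekOne DD 3′ kit; the submitters' processing notes name GRCm38 and mm10, and which aligner and counter were used is not given in the sources read here. The 4 YFP+ libraries entered no comparison. Kept cells had over 100 genes and no more than 10% of UMIs from the mitochondria, which left 21058 cKO and 21125 control total cells. No doublet caller was run. An alternative left out cells above 2 times the median UMI count of the class in their library. It trimmed unevenly: 44 of 59 and 52 of 56 cells of the class remained in cKO total, and 59 of 60 and 126 of 128 in control total. In cKO total 1, 8 of 15 C1q-negative cells remained. The cells and gene lists were chosen with earlier results of these data known. Clec7a and Mx1 were not found, so 19 of 20 genes of the IL-4 response and of the interferon list were read.

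UMIs were summed per library, since cells are not replicates, and tested in edgeR 4.0.16 (R 4.3.3) by the quasi-likelihood test with TMM scaling, filterByExpr, a robust fit and a prior count of 2, adjusted by Benjamini-Hochberg over all tested genes at 0.05; DESeq2 1.42.0 was an alternative. The scripts were checked on simulated data. The SE beside an edgeR log2 difference is the size of that difference divided by the square root of the F value of its test. The prior count draws the difference toward 0 but does not enter the F value, so this SE can be too small at low counts. DESeq2 gave an SE of 1.86 for Dnase1l3, 1.69 for Il4i1 and 1.00 for Ccl4, where this SE was 0.514, 0.832 and 0.524. The p-values measure the spread between pooled libraries, 2 per group, steadied by spread borrowed across genes. With the replicate block they rest more on that borrowed spread than on the libraries. Shares were compared by two-sided exact permutation tests, with Clopper-Pearson intervals. The batch number in the labels pairs a cKO with a control library; deviations from group means within a batch correlated at 0.352 over the genes of the whole class, 0.199 in C1q-positive and 0.248 in C1q-negative cells. Named genes were the genes called, or, where 0 were called in a direction, the 5 lowest p in that direction, leaving out Rik, Gm, pseudogene and receptor segment genes, plus Csf1r, Lyz2, C1qa, C1qb and Eif3e, list genes in the account of their list, and for the model of the difference between C1q states the 5 lowest p. Other tools were Python 3.11.15, numpy 2.4.6, scipy 1.17.1, pandas 2.3.3 and matplotlib 3.10.9.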

Additional observations from a re-analysis of the deposited data

Results flagged for a closer look

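The difference between genotypes differed between the C1q states for Dnase1l3, by -2.68 on the log2 scale in the edgeR test of that difference, on the counts given above. The call was lost in 7 of 12 alternatives, DESeq2 among them (adjusted p = 0.951), and the C1q-negative UMIs came from 1 cell in each cKO library.

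The YFP+ libraries, sorted for cells in which Cre had been active and not used in the comparisons, held cells that met the same conditions. They were 0.365% of kept cells in cKO YFP+ 1 and 0.0956% in cKO YFP+ 2 (37 and 10 cells), and 0.216% in control YFP+ 1 and 0.0343% in control YFP+ 2 (20 and 4 cells). Of these cells 36 and 9 in cKO and 18 and 3 in control were C1q-positive. Their median depth was 863 and 1066.5 UMIs in cKO and 2009 and 6450 in control, and B cells made up 89.8 to 97.6% of the kept cells of these libraries.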

How the results depend on the processing

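The number of genes called in the whole class, 0 by edgeR, was 239 with the batch number as a replicate block, 91 with no filter on low counts, 20 by DESeq2 and 9 without the deepest cells, and 29 to 147 when a library was left out. In C1q-positive cells it was 0 with the block, 4 with no filter and 4 to 19 when a library was left out. In C1q-negative cells, with 1 call, it was 12 with the block, 17 with no filter, 0 by DESeq2, 0 in cells with no B cell UMI and under 5 S100a8 and S100a9 UMIs, 0 after thinning, 5 with C1q-positive cells counted from 3 UMIs and 1 to 23 when a library was left out. For the difference between C1q states, also 1 call, it was 2 with no filter, 0 by DESeq2, 0 in the purer cells, 0 without the deepest cells, 2 after thinning, 2 with the higher C1q minimum, 1 to 10 when a library was left out and 2 in cells with no dendritic gene, a choice made after seeing the data. The difference in the share of the class, -0.321 percentage points, was -0.0096 after thinning and -0.161 in cells with no dendritic gene. The difference in the share in the non-classical range moved from -3.32 to 10.5 points after thinning. Thinning and stricter cell choices leave fewer genes to test; the cause of the other shifts was not tested. Counted per 1000000 of all UMIs, a choice made after seeing the data, 14.1% of genes were higher in C1q-positive and 18.1% in C1q-negative cells in 4 of 4 libraries, the red pulp, MHC class II, uptake and lysosomal counts higher in C1q-positive cells were the same, and 6 classical and 11 non-classical genes were higher in C1q-negative cells. Of the named genes' alternative values, 384 stayed on their side of the threshold with the same sign, 71 passed it and 11 lost it. Another 24 had the opposite sign to the main fit, all for genes that the main fit did not call. With 15 to 99 cells per sum, 1 cell can hold most UMIs of a gene.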

Other observations

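Some genes of the IL-4 response list were seen almost only in cKO total 2. In C1q-positive cells the chemokine Ccl24 had 65 UMIs in 12 cells of cKO total 2, against 2 in cKO total 1 and 2 and 4 in control total 1 and 2. Retnla, which encodes a secreted protein of alternatively activated macrophages, had 15 UMIs in 3 cells of cKO total 2 and 0 in the other 3 libraries, and Arg1, which encodes arginase 1, had 4 UMIs in 2 cells of cKO total 2 and 0 elsewhere. Mgl2, Cish and Fcer2a were at 17.5, 29.2 and 5.84 CPM in the C1q-positive cells of cKO total 2 and at 0 in those of the other libraries. The 4 Arg1 UMIs were 23.4 CPM there, so each of these values is a few UMIs at most. In C1q-negative cells Cish was at 25.7 CPM in cKO total 2 and at 4.73 and 2.96 CPM in control total 1 and 2. Fcer2a was at 8.58 CPM in the C1q-negative cells of cKO total 2 and at 1.48 CPM in those of control total 2. Ccl17, Ccl22, Ch25h and Alox15 were at 0 in the C1q-positive cells of all 4 libraries. Of the list, 4 genes could be tested in C1q-positive cells, 1 higher and 3 lower in cKO, with a median log2 difference of -0.09 (-0.15 to 0.59 when a library was left out) and 0 called by edgeR.

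Of the 18 genes of the cell cycle list 3 could be tested in C1q-negative cells, with 0 called. The summed list was at 901 and 2303 CPM in cKO total and 756 and 806 CPM in control total. Mki67 and Top2a lay almost only in few C1q-negative cells of cKO total 2. Mki67 had 37 UMIs there, 36 of them in 1 cell, against 1 in cKO total 1 and 0 and 2 in control total 1 and 2. Top2a had 41 UMIs in cKO total 2, 38 of them in 1 cell, against 1, 2 and 1 in cKO total 1, control total 1 and control total 2.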
